A study of Mus musculus with 12 samples.

Results

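Alpha-arrestins form a small family of arrestin-fold adaptor proteins, of which mice have *Txnip* and *Arrdc1* to *Arrdc5*, and their transcripts were followed here in brown adipose tissue (BAT) that lacked *Txnip*. The members were picked by gene symbol alone, and all 6 were among the 25124 genes of the deposited expression table. Interscapular BAT was taken from male mice at 10 weeks of age after 1 week at 23 °C (room temperature, RT) or at 30 °C (thermoneutrality, TN), giving 4 groups of 3 libraries each by genotype (WT or *Txnip*-/-) and temperature. All mice were on a C57B/6J background, and the WT mice were called littermates of the *Txnip*-/- mice without saying which mice shared a litter. The *Txnip* deletion was carried by the whole animal, so that BAT and every other tissue lacked the gene. Values are transcripts per 1000000 (TPM), a per-length scale on which genes can be compared with each other, and errors are SD over the 3 libraries of a group.

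Arrestin-fold proteins of the alpha class carry an arrestin domain pair, and most of them, though not Arrdc5, have a tail with PPxY motifs that bind ubiquitin ligases of the NEDD4 family. By this route they send membrane proteins to the endosome and lysosome. Txnip also binds and inhibits thioredoxin, and it promotes the uptake of the glucose transporters GLUT1 and GLUT4 from the cell surface. Transcription of *Txnip* and of *Arrdc4* rises with glucose through the factors MondoA (*Mlxip*) and ChREBP (*Mlxipl*) with their partner *Mlx*, which bind E-box pairs called carbohydrate response elements.

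The promoters of the members that changed with genotype or temperature are shown, since those background roles lead to sequences that can be looked up. RefSeq held a promoter window for 6 of 6 members (8 windows in all, build GRCm38.p6, which is mm10), and each line below gives the 250 bases that end just before the annotated start, on the strand of the gene and 5′ to 3′. Capitals mark matches on either strand to the E-box CACGTG, to its variant CACGAG, which reads CTCGTG on the other strand, or to CCAAT, which reads ATTGG on the other strand.
*Txnip*, chr3:96557707-96557956, plus strand: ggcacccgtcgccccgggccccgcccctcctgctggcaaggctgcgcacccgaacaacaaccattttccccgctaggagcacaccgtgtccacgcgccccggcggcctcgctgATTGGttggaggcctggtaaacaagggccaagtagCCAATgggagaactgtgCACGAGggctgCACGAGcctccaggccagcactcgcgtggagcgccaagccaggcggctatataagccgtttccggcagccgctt
*Arrdc4*, chr7:68749239-68749488, minus strand: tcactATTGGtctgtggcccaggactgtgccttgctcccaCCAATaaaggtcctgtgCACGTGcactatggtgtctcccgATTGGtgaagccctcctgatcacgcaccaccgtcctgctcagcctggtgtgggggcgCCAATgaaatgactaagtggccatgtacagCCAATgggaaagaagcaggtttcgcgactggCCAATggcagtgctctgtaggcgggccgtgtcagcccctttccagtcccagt
*Arrdc2*, chr8:70839721-70839970, minus strand: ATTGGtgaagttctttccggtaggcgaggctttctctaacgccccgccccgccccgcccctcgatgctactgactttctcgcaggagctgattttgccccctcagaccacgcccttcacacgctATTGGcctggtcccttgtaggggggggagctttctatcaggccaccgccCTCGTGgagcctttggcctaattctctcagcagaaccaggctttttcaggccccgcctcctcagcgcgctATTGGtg
*Arrdc1*, chr2:24935282-24935531, minus strand: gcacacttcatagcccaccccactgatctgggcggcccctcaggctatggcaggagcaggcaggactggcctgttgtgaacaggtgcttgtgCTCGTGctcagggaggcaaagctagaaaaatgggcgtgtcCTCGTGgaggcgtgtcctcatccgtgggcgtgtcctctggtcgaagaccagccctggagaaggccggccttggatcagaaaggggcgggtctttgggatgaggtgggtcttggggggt

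The *Txnip* promoter held CACGAG 2 times, at 85 to 80 and at 74 to 69 bases before the start. Together these made a tandem pair, CACGNG and CACGNG with any 5 bases between them, which was found in 16 of 32851 RefSeq promoter windows (0.0487%, from 15 genes). The windows searched ran from 250 bases before to 50 bases after the start, both strands were read, and the spacing of this pair was written down after the *Txnip* promoter had been read, so its rarity is a description of that sequence alone. The *Arrdc4* promoter held CACGTG at 193 to 188 bases before the start (7.15% of all windows hold it) and CCAAT 6 times (37.4% of windows hold at least 1). In *Arrdc2*, CACGAG occurred 1 time, 77 to 72 bases before the start, and CCAAT 3 times. In *Arrdc1*, CACGAG occurred 2 times (6.47% of windows hold it) and no CCAAT was matched. None of these letters was matched in the *Arrdc3* window of the transcript used for TPM. Of 2 further motifs, the FOXO-type GTAAACA (3.65% of windows) and the glucocorticoid-type GNACA and TGTNC with any 3 bases between (0.475% of windows) were matched 1 time each in *Txnip*, at 121 to 115 and at 172 to 160 bases before the start, and not in the windows of *Arrdc4*, *Arrdc2* or *Arrdc1*. All 250 bases of the *Txnip* window also lie in an annotated exon of *Gm15441* on the opposite strand.

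Reads per library, in units of 1000000, ran from 29.93 to 47.44, and the listed genes took between 55.38% and 57.55% of the TPM total. All 10 brown adipocyte markers looked up (among them *Ucp1*, *Cidea* and *Adipoq*) were above 0 in every group, and their summed level was 27950 to 28930 TPM in WT and 24580 to 29500 in *Txnip*-/- libraries at RT, and 20010 to 21640 and 17250 to 19000 at TN. Markers of other cells moved as well. The summed macrophage markers (6 of 6 above 0) were 48.6 to 53.0 TPM in WT and 82.3 to 145 in *Txnip*-/- libraries at RT, and 111 to 199 and 323 to 445 at TN. Skeletal muscle markers (7 genes) were 2.36 to 2.89 TPM in RT WT but 17.9 to 43.6 in RT *Txnip*-/-, and 1 library of each TN group, replicate 2, stood apart at 14.5 in WT and 14.4 in *Txnip*-/-. In bulk tissue, fewer cells of a type and less RNA per cell cannot be told apart.

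*Txnip* (NM_023719, mm10 chromosome 3, 96557957 to 96561857) was the most abundant member by far in WT BAT and was largely lost in *Txnip*-/- BAT. At RT the WT libraries had 564, 581 and 694 TPM (613 ± 70.8, SD, n = 3) and the *Txnip*-/- libraries 24.8, 26.9 and 35.4 TPM (29.0 ± 5.59, SD, n = 3). At TN the WT libraries had 1238, 1083 and 1072 TPM (1131 ± 92.7, SD, n = 3) and the *Txnip*-/- libraries 11.02, 14.4 and 10.5 TPM (11.98 ± 2.12, SD, n = 3). The genotypes lay far apart at both temperatures, with a mean 21.1-fold lower in *Txnip*-/- mice at RT and 94.4-fold lower at TN. On the log2(TPM + 1) scale the log2 fold changes of *Txnip* were −4.36 (95% interval −4.69 to −4.04) at RT and −6.46 (95% interval −6.73 to −6.18) at TN, with limma adjusted p of 5e-05 and 1.97e-07, the largest decrease of the 11980 and 12891 genes tested. Of those genes 0.726% and 2.17% were called lower. With the log2 values that the authors also deposited, the changes of *Txnip* were smaller, −2.95 at RT and −4.67 at TN, outside the intervals above. The exact permutation test of 3 against 3 libraries cannot go below a two-sided p of 0.1, which these comparisons reached. In all 12 libraries the *Txnip* level was on the side that the label gives. By mean TPM, *Txnip* ranked 147 among all genes in RT WT and 54 in TN WT, against 2904 and 6184 in the *Txnip*-/- groups.

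**Figure D1:**
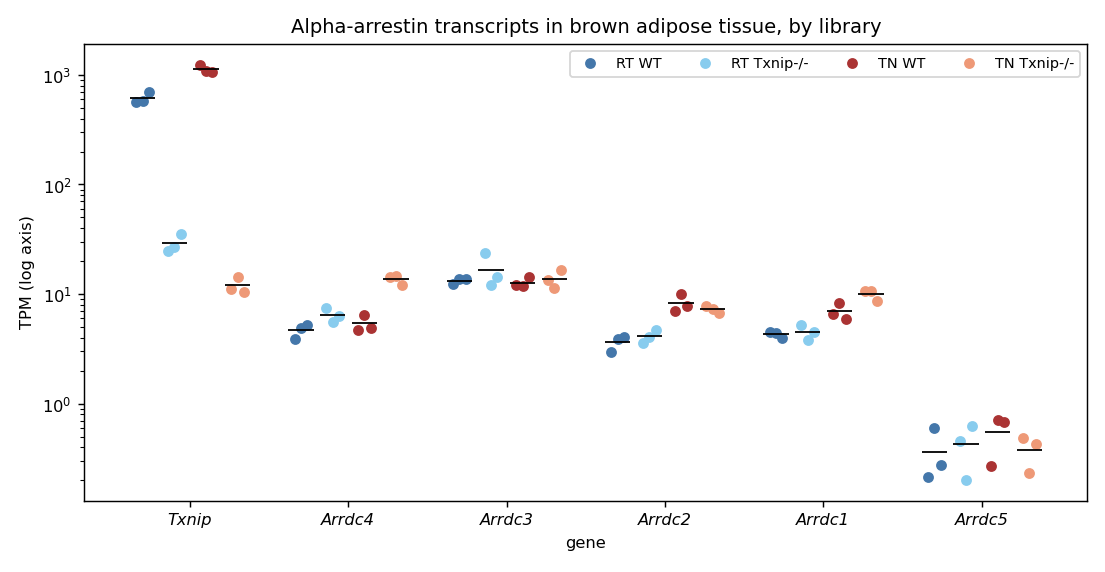
TPM on a log axis of the 6 alpha-arrestin genes in each of the 12 libraries (points) with the group mean (line), coloured by temperature and genotype. *Txnip* stands at 564 to 1238 TPM in WT and at 10.5 to 35.4 in *Txnip*-/- libraries, while the 3 TN *Txnip*-/- libraries of *Arrdc4* (12.1 to 14.6 TPM) lie above those of every other group.

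The reads that remained on *Txnip* in *Txnip*-/- BAT went the other way with temperature than those in WT. From RT to TN the WT level rose 1.85-fold (log2 fold change 0.89, 95% interval 0.58 to 1.19, limma adjusted p = 0.000565), whereas the level left in *Txnip*-/- mice was 2.42-fold lower at TN (log2 fold change −1.21, 95% interval −1.51 to −0.90, limma adjusted p = 5.57e-05). No library of 1 temperature overlapped the other in either genotype. The same was so for 45.5% of tested genes with TN higher in WT, and for 16.9% with TN lower in *Txnip*-/- mice. The TPM give no position along the transcript, so which part of the gene these reads cover was not analysed here.

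*Gm15441*, a long noncoding RNA gene on the opposite strand (NR_040409, chromosome 3, 96555768 to 96566801), shares 606 exon bases with *Txnip*, or 19.4% of the *Txnip* exon bases and 36.2% of its own. The sources give no strand setting for the counting, so reads from the shared bases cannot be told apart between the genes. At TN *Gm15441* had 413, 337 and 323 TPM in WT and 160, 174 and 141 TPM in *Txnip*-/- libraries, and it fell by 1.17 on the log2 scale (95% interval −1.43 to −0.90, limma adjusted p = 0.00302). The RT libraries had 184, 188 and 220 TPM in WT and 169, 171 and 174 TPM in *Txnip*-/- libraries, a log2 fold change of −0.20 with an adjusted p of 0.25 by limma. The groups did not overlap at either temperature, as in 7.58% and 13.4% of tested genes with *Txnip*-/- lower. In WT mice *Gm15441* was 1.81-fold higher at TN than at RT (log2 fold change 0.85, limma adjusted p = 0.000152), and in *Txnip*-/- mice the log2 fold change with temperature was −0.12 (limma adjusted p = 0.353).

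**Figure D2:**
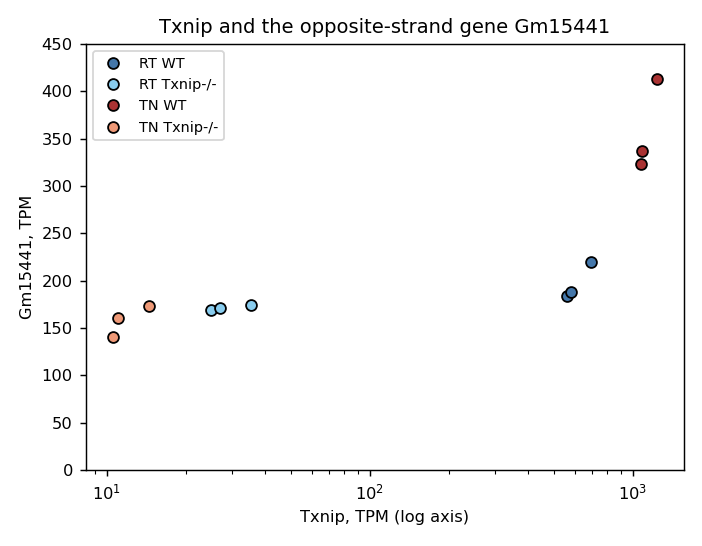
TPM of *Gm15441* against TPM of *Txnip* (log axis) in the 12 libraries, coloured by group. The 6 *Txnip*-/- libraries lie between 141 and 174 TPM of *Gm15441*, the RT WT libraries between 184 and 220, and the TN WT libraries between 323 and 413.

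Whether the relatives of *Txnip* change when it is lost was asked at each temperature. At TN, *Arrdc4* rose, *Arrdc1* was higher in all 3 *Txnip*-/- libraries without passing the test, and *Arrdc2* and *Arrdc3* did not pass. At RT, none of the 4 relatives tested was called by limma, and 1 of them (*Arrdc4*) had an unadjusted p under 0.05, as did 16.0% of all tested genes. At TN 2 of the 4 (*Arrdc4* and *Arrdc1*) had one, as did 25.6% of all tested genes. The share of all tested genes called in either direction was 1.49% at RT and 8.66% at TN, and 6.49% were called higher at TN, against which the 1 of 4 relatives is to be read. Libraries of the genotypes did not overlap, in either direction, for 22.6% of genes at RT and 31.1% at TN. *Arrdc5* lay below the mean of 1 TPM that a gene needed for the test.

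*Arrdc4* (NM_025549, chromosome 7, 68741593 to 68749238) is the closest relative of *Txnip* and, like it, limits glucose uptake and answers to MondoA. At TN it had 4.75, 6.48 and 4.94 TPM in WT (5.39 ± 0.95, SD, n = 3) and 14.2, 14.6 and 12.1 TPM in *Txnip*-/- libraries (13.6 ± 1.38, SD, n = 3). Every *Txnip*-/- library was above every WT library, as was so for 17.7% of all tested genes, and the mean was 2.53-fold higher. The log2 fold change was 1.20 (standard error 0.12, 95% interval 0.92 to 1.48, limma adjusted p = 0.00314), the 80th highest of 12891 genes. At RT the libraries had 3.93, 4.93 and 5.17 TPM in WT (4.68 ± 0.658, SD, n = 3) and 7.50, 5.52 and 6.27 TPM in *Txnip*-/- mice (6.43 ± 1.00, SD, n = 3). These also did not overlap, as in 15.1% of tested genes with *Txnip*-/- higher. The log2 fold change at RT was 0.39 (95% interval 0.08 to 0.70), with an adjusted p of 0.218 by limma, and did not pass. The TPM of *Arrdc4* were scaled to a transcript of 1090 bases, while the authors' log2 values rest on another of 3893 bases (NM_001042592), and with those values the TN change was 0.94 (limma adjusted p = 0.000631).

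*Arrdc1* (NM_001162485, chromosome 2, 24925352 to 24935281) encodes a protein of the plasma membrane that drives the budding of small vesicles from the cell. At TN it had 6.62, 8.29 and 5.93 TPM in WT (6.95 ± 1.21, SD, n = 3) and 10.6, 10.7 and 8.67 TPM in *Txnip*-/- libraries (9.98 ± 1.13, SD, n = 3). The 3 *Txnip*-/- libraries lay above the WT libraries, as in 17.7% of tested genes, the nearest pair being 8.29 and 8.67 TPM. The log2 fold change of 0.47 (standard error 0.13, 95% interval 0.18 to 0.76) had a limma adjusted p of 0.0565, just outside the threshold of 0.05. Over the 16 alternative settings this adjusted p ranged from 0.0313 to 0.171, and 4 of the 16 called the gene, among them the fit of all 12 libraries (0.0313) and those without TN WT replicate 2 (0.0336) or TN *Txnip*-/- replicate 3 (0.0478). At RT *Arrdc1* had 4.48, 4.43 and 3.99 TPM in WT and 5.17, 3.85 and 4.50 TPM in *Txnip*-/- libraries, which overlapped, with a log2 fold change of 0.05 (95% interval −0.21 to 0.31, limma adjusted p = 0.876).

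*Arrdc2* (NM_027560, chromosome 8, 70835138 to 70839720), an alpha-arrestin whose cargo is little known, overlapped between genotypes at both temperatures. It had 2.94, 3.90 and 4.09 TPM in RT WT and 3.58, 4.06 and 4.69 TPM in RT *Txnip*-/- libraries, a log2 fold change of 0.14 (95% interval −0.17 to 0.45, limma adjusted p = 0.66). At TN it had 7.08, 10.0 and 7.71 TPM in WT and 7.79, 7.27 and 6.74 TPM in *Txnip*-/- libraries, a log2 fold change of −0.16 (95% interval −0.44 to 0.13, limma adjusted p = 0.487). The TN interval leaves room for a decrease by 0.44 on the log2 scale or for a small increase.

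*Arrdc3* (NR_153411, chromosome 13, 80886095 to 80896042) encodes an adaptor that brings ubiquitin ligases to beta-adrenergic receptors, the receptors through which cold drives heat production in BAT. By mean TPM it was the most abundant relative in every group, though in TN *Txnip*-/- its libraries overlapped those of *Arrdc4* (means of 13.8 and 13.6 TPM). *Arrdc3* had 12.3, 13.7 and 13.7 TPM in RT WT and 23.9, 12.1 and 14.2 TPM in RT *Txnip*-/- libraries. Replicate 1 of RT *Txnip*-/- stood above all other libraries of the series, and without it the log2 fold change at RT went from 0.26 to −0.01. With it, the 95% interval was −0.25 to 0.78 (limma adjusted p = 0.616). At TN the libraries had 11.98, 11.8 and 14.2 TPM in WT and 13.3, 11.5 and 16.7 TPM in *Txnip*-/- mice, which overlapped (log2 fold change 0.10, 95% interval −0.20 to 0.41, limma adjusted p = 0.68). Without TN *Txnip*-/- replicate 3 that change was −0.03.

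*Arrdc5* (NM_029799, chromosome 17, 56294111 to 56300286), known mainly from bone and testis, was near the limit of detection. Its means were 0.364 ± 0.212 TPM in WT and 0.428 ± 0.213 in *Txnip*-/- libraries at RT, and 0.555 ± 0.248 and 0.380 ± 0.131 at TN (SD, n = 3 each). The 12 libraries ranged from 0.201 to 0.713 TPM and the groups overlapped. With no filter on low values its log2 fold change was 0.07 at RT (limma adjusted p = 0.903) and −0.16 at TN (limma adjusted p = 0.618).

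**Figure D3:**
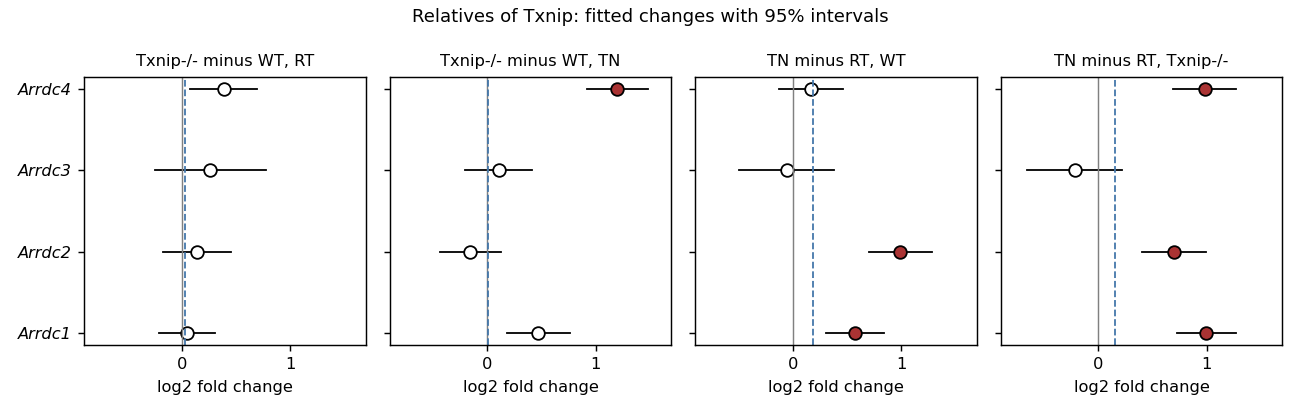
Fitted log2 fold changes (points) with 95% intervals (lines) of the 4 relatives tested, for *Txnip*-/- minus WT at RT and TN and for TN minus RT in each genotype; filled points passed the fold change and limma adjusted p, and the dashed line is the median of all genes tested. *Arrdc4* at TN (1.20) is the only filled point in the genotype panels, and *Arrdc3* is open in all 4 panels.

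The markers of other cells moved with the genotype at TN, where *Arrdc4* was higher. Of the macrophage markers 6 of 6 were called higher in TN *Txnip*-/- mice (median log2 fold change 1.18), and of the fibroblast markers 4 of 4 (median 0.79), with summed fibroblast levels of 188 to 243 TPM in TN WT and 355 to 365 TPM in TN *Txnip*-/-. B and T lymphocyte markers summed to 5.75 to 10.5 TPM in TN WT and 21.0 to 26.4 TPM in TN *Txnip*-/-, and 2 of 5 tested were called higher. These were *Jchain* (means of 1.57 and 12.8 TPM), the largest part of the *Txnip*-/- sum, and *Cd79b* (1.15 and 2.30 TPM). *Cd79a* (2.02 and 2.74 TPM), *Cd3e* (1.82 and 2.71 TPM) and *Cd3d* (0.746 and 1.995 TPM) did not pass. Of the brown adipocyte markers 4 of 10 were called lower at TN, and of the white adipocyte markers 2 of 3 tested were called higher (*Retn* 0.88 and *Nnat* 1.06 on the log2 scale). Of the 4 Schwann cell and nerve markers, *S100b* was called lower at both temperatures (log2 fold change −1.60 at RT and −1.12 at TN). At RT the macrophage markers were called higher in 2 of 6 cases. The 7 skeletal muscle markers stood apart at RT by their summed level given above, and their calls are not counted, since *Acta1*, *Ckm*, *Myh4* and *Tnnt3* had means below 1 TPM in RT WT and passed the filter on low values only through RT *Txnip*-/-. The part of these cells in the *Arrdc4* and *Arrdc1* values was not tested.

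Summed over *Arrdc1* to *Arrdc5*, the relatives were small beside *Txnip* in WT BAT. Their summed level was 26.2 ± 2.05 TPM in RT WT and 32.2 ± 7.65 TPM in RT *Txnip*-/- (SD, n = 3 each), where the libraries overlapped. At TN it was 33.9 ± 3.34 TPM in WT (30.7 to 37.4) and 45.1 ± 1.17 TPM in *Txnip*-/- (44.3 to 46.4), which did not overlap. *Txnip* made up 95.9% ± 0.38 of the summed TPM of the 6 genes in RT WT and 97.1% ± 0.465 in TN WT, against 47.6% ± 8.51 and 21.0% ± 3.14 in the *Txnip*-/- groups (SD, n = 3 each). At TN the relatives together were 11.2 TPM higher in *Txnip*-/- mice, while *Txnip* was lower by a difference of −1119 TPM. By gene the TN differences were 8.24 TPM for *Arrdc4*, 3.03 for *Arrdc1*, 1.14 for *Arrdc3*, −1.01 for *Arrdc2* and −0.175 for *Arrdc5*. Of these only *Arrdc4* was called, so the sum does not show a rise of the whole family. At RT the differences of the summed relatives and of *Txnip* were 6.02 and −583.8 TPM.

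**Figure D4:**
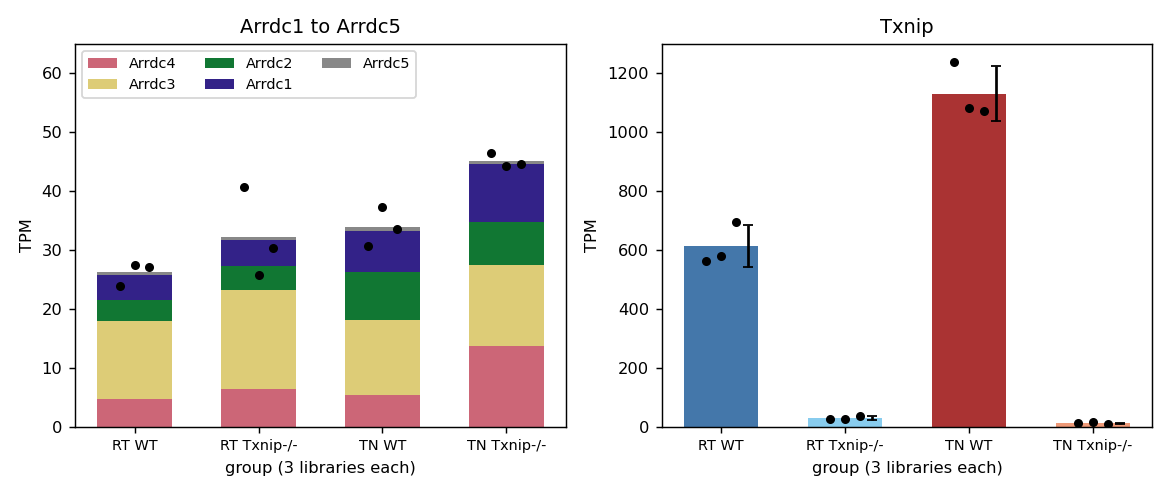
Left, mean TPM of the 5 relatives stacked by gene for each group, with points for the sum in each library; right, mean TPM of *Txnip* with its SD and the libraries as points, on an axis of its own. The stacked sum is 26.2, 32.2, 33.9 and 45.1 TPM from left to right, and *Txnip* reaches 613 and 1131 TPM in the WT groups.

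The order of the members by TPM differed between the groups, also in the first place. Both this order and the sums above rest on the transcripts to which the TPM were scaled. The authors' log2 values use others for *Arrdc1* (1724 against 1685 bases), *Arrdc3* (4157 against 3622) and *Arrdc4* (3893 against 1090). In RT WT the order ran *Txnip*, *Arrdc3*, then *Arrdc4*, *Arrdc1* and *Arrdc2*, whose libraries overlapped from neighbour to neighbour, and last *Arrdc5*. In TN WT it ran *Txnip*, *Arrdc3*, then *Arrdc2*, *Arrdc1* and *Arrdc4*, again overlapping, and *Arrdc5*. In RT *Txnip*-/- mice *Txnip* was still first, with *Arrdc3* and *Arrdc4* next and apart from their neighbours. In TN *Txnip*-/- mice *Arrdc3*, *Arrdc4*, *Txnip* and *Arrdc1* overlapped from neighbour to neighbour, at means of 13.8, 13.6, 11.98 and 9.98 TPM, and *Arrdc2* and *Arrdc5* followed apart.

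With housing temperature, in WT BAT *Txnip*, *Arrdc2* and *Arrdc1* rose from RT to TN, and *Arrdc4* and *Arrdc3* did not pass the test. In *Txnip*-/- BAT *Arrdc1*, *Arrdc4* and *Arrdc2* rose. These counts stand on a high background, since 37.8% of 12486 genes were called in WT (31.4% higher and 6.39% lower) and 39.2% in *Txnip*-/- mice (30.9% higher and 8.27% lower). Libraries of the 2 temperatures did not overlap for 57.5% of genes in WT (45.5% higher at TN) and for 61.1% in *Txnip*-/- mice (44.1% higher and 16.9% lower at TN). The median log2 fold change of all genes was 0.18 in WT and 0.15 in *Txnip*-/- mice. Of the called genes 83.1% were higher in WT and 78.9% in *Txnip*-/- mice, against 55.5% and 56.0% with upper-quartile normalization and 51.1% and 48.5% with median centring. The member calls were the same ones under both. Markers of other cells moved with temperature too: in WT, 5 of 6 macrophage, 4 of 4 fibroblast and 3 of 5 endothelial markers were called higher at TN and 5 of 10 brown adipocyte markers lower, and in *Txnip*-/- mice 6 of 6, 4 of 4, 5 of 5 and 7 of 10. In *Txnip*-/- mice the summed skeletal muscle markers went the other way, with 17.9 to 43.6 TPM at RT and 2.90 to 14.4 TPM at TN. The summed lymphocyte markers were 4.67 to 5.67 TPM at RT and 21.0 to 26.4 TPM at TN, the largest part being *Jchain* (means of 1.66 and 12.8 TPM). The summed white adipocyte markers were 40.0 to 64.5 TPM at RT and 111 to 176 TPM at TN. In WT these sums were 2.36 to 2.89 and 2.32 to 14.5 TPM for muscle, 2.42 to 3.94 and 5.75 to 10.5 TPM for lymphocytes, and 18.5 to 48.7 and 91.6 to 114 TPM for white adipocytes. The part of these cells in the member changes with temperature was not tested.

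The values behind this differ by member. *Arrdc2* rose from 3.64 ± 0.614 to 8.28 ± 1.56 TPM in WT (2.27-fold, log2 fold change 0.99, standard error 0.13, limma adjusted p = 0.00025), and its level in *Txnip*-/- mice rose from 4.11 ± 0.553 to 7.26 ± 0.529 TPM (log2 fold change 0.70, limma adjusted p = 0.00128). *Arrdc1* rose from 4.30 ± 0.265 to 6.95 ± 1.21 TPM in WT (log2 fold change 0.58, standard error 0.12, limma adjusted p = 0.003) and from 4.51 ± 0.661 to 9.98 ± 1.13 TPM in *Txnip*-/- mice (log2 fold change 1.00, limma adjusted p = 8.04e-05). In both genes the RT and TN libraries lay apart in each genotype, as in 45.5% (WT) and 44.1% (*Txnip*-/-) of tested genes with TN higher. *Arrdc4* had a log2 fold change of 0.17 in WT (95% interval −0.13 to 0.46, limma adjusted p = 0.315), close to the median of all genes, and −0.02 after median centring. In *Txnip*-/- mice *Arrdc4* rose 2.12-fold (log2 fold change 0.98, standard error 0.13, limma adjusted p = 0.000142). *Arrdc3* had log2 fold changes of −0.06 in WT (95% interval −0.49 to 0.38) and −0.22 in *Txnip*-/- mice (95% interval −0.65 to 0.22), the latter 0.06 without RT *Txnip*-/- replicate 1. The comparisons of temperature and genotype share libraries and so are not independent of each other.

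Whether the effect of the deletion differed between TN and RT was tested over all 12 libraries. *Txnip* itself passed, with a difference of −2.09 on the log2 scale (standard error 0.20, limma adjusted p = 0.00344), and it was the 1 gene of 12486 that did (0.00801%). None of the 4 relatives tested was called by limma, and 2 of them had an unadjusted p under 0.05, as did 12.6% of all tested genes. The TN minus RT difference was 0.81 for *Arrdc4* (95% interval 0.40 to 1.23, unadjusted p = 0.00112, limma adjusted p = 0.15) and 0.42 for *Arrdc1* (95% interval 0.04 to 0.81, limma adjusted p = 0.355). For *Arrdc2* it was −0.30 (limma adjusted p = 0.543) and for *Arrdc3* −0.16 (limma adjusted p = 0.846). A larger change of *Arrdc4* at TN than at RT was thus not called after adjustment over all genes.

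Genes that act with the family were read from 7 lists, whose counts are to be read against the shares of all genes given above (1.49% called at RT and 8.66% at TN, 16.0% and 25.6% with an unadjusted p under 0.05). For the carbohydrate-sensing factors, *Mlxipl* (ChREBP) rose in TN *Txnip*-/- mice from 144 ± 33.6 to 232 ± 6.31 TPM (log2 fold change 0.71, limma adjusted p = 0.0228). At RT it had 119 ± 35.5 and 190 ± 20.1 TPM (log2 fold change 0.70, limma adjusted p = 0.146). *Mlxip* (MondoA) had log2 fold changes of 0.19 at RT and 0.10 at TN, and their partner *Mlx* −0.24 and −0.20, none of which passed. The list was thus 1 of 3 called higher at TN. The *Mlxipl* call at TN was lost when any library but TN WT replicate 2 was left out (limma adjusted p up to 0.0774).

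Of 14 carbohydrate response targets 12 were tested. At TN 2 were called higher and 0 lower, a count that became 6 without TN WT replicate 2, 4 with the authors' log2 values, 0 without the filter on low values, and 1 without the expression trend or without any of the other 5 libraries. The list's median log2 fold change was 0.53 (0.01 over all genes), and 6 had an unadjusted p under 0.05. The called ones were *Thrsp*, a lipogenic nuclear protein (log2 fold change 0.61, limma adjusted p = 0.0123), and *Elovl6*, a fatty acid elongase (0.78, limma adjusted p = 0.0432). At RT 0 of the 12 were called by limma, 6 had an unadjusted p under 0.05, and the median was 0.27 against 0.03 for all genes. Without RT WT replicate 3, 4 of the targets were called at RT, among them *Thrsp* and *Elovl6*, and *Mlxipl* passed as well (limma adjusted p of 0.0351, 0.00534 and 0.0334). The *Elovl6* call at TN was lost when any library but TN WT replicate 2 was left out (limma adjusted p up to 0.128).

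The thioredoxin system, the redox partner of Txnip, had 7 genes tested and 0 called at either temperature by limma, with 1 gene at an unadjusted p under 0.05 each time. *Txn1*, the cytosolic thioredoxin that Txnip binds, had 185 ± 9.29 and 235 ± 21.4 TPM in RT WT and RT *Txnip*-/- (log2 fold change 0.34, limma adjusted p = 0.0846) and 231 ± 40.2 and 326 ± 60.0 TPM in the TN groups (log2 fold change 0.50, limma adjusted p = 0.10). *Txn2*, the mitochondrial thioredoxin, had log2 fold changes of 0.02 at RT, where the sign turned with upper-quartile normalization (−0.01), and −0.05 at TN. Of the NEDD4 family ligases and their adaptors 10 of 11 were tested and 0 called at either temperature by limma, with 2 at an unadjusted p under 0.05 at RT and 1 at TN. Their log2 fold changes ran from −0.10 to 0.16 at RT and from −0.25 to 0.08 at TN.

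Other genes with an arrestin fold behaved unequally at TN. The beta-arrestins, which turn off and internalise G protein-coupled receptors, both rose in TN *Txnip*-/- mice, *Arrb1* from 13.9 ± 1.59 to 21.9 ± 2.57 TPM (log2 fold change 0.62, limma adjusted p = 0.0138) and *Arrb2* from 7.83 ± 1.18 to 13.3 ± 1.57 TPM (0.70, limma adjusted p = 0.0132). They were the 2 genes called of 7 tested in that list, and the other 5 ran from −0.19 to 0.07. At RT 0 of 6 were called by limma and 3 had an unadjusted p under 0.05, with log2 fold changes of 0.48 for *Arrb1* and 0.39 for *Arrb2*. The macrophage markers given above moved with these genes at TN, and their part was not tested.

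Among 9 reported cargo genes of alpha-arrestins 1 was called at TN, a share near the 8.66% of all genes. *Slc2a1*, which encodes GLUT1, fell in TN *Txnip*-/- mice from 7.28 ± 0.843 to 3.92 ± 0.588 TPM (log2 fold change −0.76, 95% interval −1.03 to −0.48, limma adjusted p = 0.00998). The RT means were 4.97 ± 0.613 and 3.24 ± 0.0771 TPM (log2 fold change −0.49, limma adjusted p = 0.0679). *Slc2a4*, which encodes the insulin-driven transporter GLUT4, had log2 fold changes of 0.16 at RT (limma adjusted p = 0.553) and −0.20 at TN (limma adjusted p = 0.312). At RT 0 of the 9 were called by limma, with 1 at an unadjusted p under 0.05. Of 16 tested glucocorticoid and FOXO responsive genes 0 were called at either temperature by limma, with 5 at an unadjusted p under 0.05 at RT (16.0% of all genes) and 2 at TN (25.6% of all genes) and medians of 0.23 and 0.07.

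**Figure D5:**
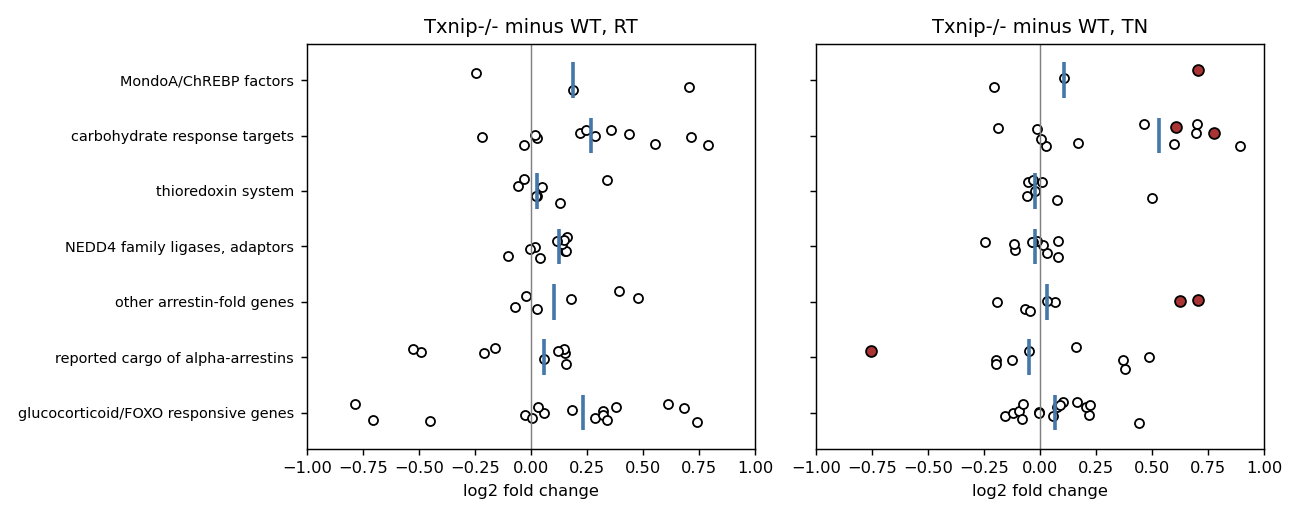
Log2 fold changes of *Txnip*-/- minus WT at RT and TN for the genes tested in 7 lists (points, filled where the fold change and limma adjusted p passed) with the median of each list (vertical bar). No point is filled at RT, and at TN the filled points are *Mlxipl*, *Thrsp*, *Elovl6*, *Arrb1* and *Arrb2* above 0 and *Slc2a1* below.

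The profile of each member over the 12 libraries was set beside those of 8903 genes, by the root mean square difference of centred log2 values. *Txnip* had no near match: the closest were *Pon1* (1.60), *Lncbate10* (1.94) and *Gys2* (2.11), against a spread of 2.76 of *Txnip* about its own mean. *Arrdc4* was closest to *Ucp2* (0.159), *Prss23* (0.187) and *Slit3* (0.193), against 0.551 of its own. For *Arrdc1* the closest were *Thap3* (0.098), *Man2b1* (0.102) and *Lgals6* (0.104), and for *Arrdc2* they were *Hjurp* (0.136), *Pnisr* (0.143) and *A730008H23Rik* (0.149). *Arrdc3* was closest to *Lrrc58* (0.174), *Mtfmt* (0.181) and *Rabgap1l* (0.183), not far below its own spread of 0.263. These are descriptions with no test, and the points share libraries and depth.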

How the data were processed

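RNA-seq libraries of interscapular BAT were analysed as 4 groups of 3. Per the methods, the authors prepared libraries from poly-A RNA, mapped single-end reads on mm10 by STAR 2.7.5a and counted exon reads with HOMER 4.11.1. The authors deposited TPM of all 12 libraries, the values used here. The authors also deposited log2 values for the 6 libraries of each temperature, used as an alternative, which rest on another transcript than the TPM for *Arrdc1*, *Arrdc3* and *Arrdc4*. The same tables hold the fold changes and p-values of the authors' own DESeq2 comparison, which were not used. Counts per gene were not analysed here, and TPM do not give the counting error.

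Tests used log2(TPM + 1), a scale which understates changes of low genes, and took genes with a mean of at least 1 TPM in the libraries of a fit. They were run with limma 3.58.1 in R 4.3.3 (empirical Bayes, trend on mean expression, Benjamini-Hochberg adjustment over all genes). The genotypes were compared within each temperature (6 libraries), and temperature and the interaction were tested on all 12. A call needed an adjusted p under 0.05 and a fold change over 1.25 or under 0.8, and the interaction by adjusted p alone. The p-values measure the spread between these libraries, taken as 1 mouse each. The fits were tested on simulated data. Members, lists and markers were chosen with earlier results of these data known. Named were the members, *Gm15441*, the carbohydrate-sensing factors, *Txn1*, *Txn2*, *Arrb1*, *Arrb2*, *Slc2a1*, *Slc2a4*, up to 4 listed genes per list called by genotype, and the 3 genes closest in profile to each member, from genes with a mean of at least 5 TPM. Alternatives were other pseudocounts, filters, normalizations, thresholds and fits, a replicate block, and each library left out. Median centring was added after the data were seen. Figures were drawn with matplotlib 3.10.9.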

Additional observations from a re-analysis of the deposited data

Results flagged for a closer look

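The effect of the deletion on *Txnip* itself differed between the temperatures: its log2 fold changes were −4.36 (RT) and −6.46 (TN), and the interaction over all 12 libraries was −2.09 (standard error 0.20, limma adjusted p = 0.00344). The WT level was higher at TN (1131 against 613 TPM) and the level left in *Txnip*-/- mice was lower (11.98 against 29.0 TPM).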

How the results depend on the processing

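The number of alpha-arrestin genes called stayed within 1.5 times its value in all 92 combinations of comparison and alternative. Of the single values of the members, 449 kept direction and side of the threshold, 6 changed sign, 4 became called and 1 lost its call. *Arrdc1* at TN passed with the replicate block (0.47, limma adjusted p = 0.033), with all 12 libraries in 1 fit (0.0313) and without either of 2 libraries, and *Arrdc1* in WT with temperature did not pass a fold change of 1.5. The block changed no other call of a member. Same-numbered libraries of the genotypes deviated together with r of 0.30, −0.01 and 0.22 at RT and 0.04, 0.02 and −0.03 at TN (across genes), and 4 of 6 and 2 of 6 libraries correlated best with their own number, so the numbers were taken as names only. With a library left out, log2 fold changes ran from −0.0363 to 0.1375 for *Arrdc1* at RT, and for *Arrdc3* from −0.009 to 0.4574 at RT, −0.029 to 0.2219 at TN, −0.41 to 0.0563 with temperature in *Txnip*-/- mice and −0.3525 to 0.1138 in the interaction. The sign turned without RT *Txnip*-/- replicate 1, and for *Arrdc3* at TN without TN *Txnip*-/- replicate 3. It turned also for *Arrdc4* with temperature in WT under median centring (−0.0155) and for *Txn2* at RT with upper-quartile normalization (−0.0093), median centring (−0.0034) and the authors' log2 values (−0.0156). None of these was called, and the cause was not tested.

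Counts over all genes moved more than the member counts. At RT the 178 called genes became 44 without a filter on low values, 100 with the replicate block, 117 without the expression trend, 272 with all 12 libraries and 116 at a fold change of 1.5, and between 2 (without RT WT replicate 2) and 159 (without RT WT replicate 3) when a library was left out, the latter alone staying within 1.5 times. At TN the 1116 became 621 without a filter and 599 at a fold change of 1.5, and between 456 and 1005 when a library was left out, staying within 1.5 times only without TN WT replicate 2 or TN *Txnip*-/- replicate 3. With temperature in WT, 4717 became 1976 at a fold change of 1.5, and in *Txnip*-/- mice 4891 became 2380. The interaction called between 1 and 6 genes, the latter without RT WT replicate 1. *Mlxipl*, *Thrsp* and *Elovl6* at TN were not called without the filter (limma adjusted p of 0.0607, 0.0985 and 0.10), and *Elovl6* also not with the block (0.0696, which left 1 carbohydrate response target called at TN) or without the trend (0.057). *Slc2a1* at RT and *Txn1* at TN passed with all 12 libraries in 1 fit (0.0428 and 0.0423).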
